A study of Mus musculus with 12 samples.

Results

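The microRNAs miR-221 and miR-222 were followed in the livers of male mice with and without an HFCF diet. They were taken as the rows named Mir221 and Mir222 of the deposited table, 2 of its 259 miRNA loci and of its 3717 genes. The study profiled hepatic microRNAs in experimental nonalcoholic steatohepatitis, a fatty liver with inflammation. All 12 animals were C57BL/6 males labelled WT, and liver was the tissue in every library. One group had the HFCF diet (its full name is not in the labels) for 1 month and was 3 months old, with chow-fed mice of the same age and feeding time beside it. Another had the HFCF diet for 3 months and was 6 months old, again beside chow-fed mice of the same age. Each of the 4 groups held 3 libraries, described as biological replicates. Time on the diet and age moved together, and by these values age at the start of feeding differed too. These cannot be told apart in any comparison between the times.

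A microRNA is cut from a hairpin in a longer transcript, and its seed, bases 2 to 8 from its 5′ end, pairs with sites in messenger RNAs and lowers their output. miR-221 and miR-222 are made from neighbouring hairpins that are transcribed together, and they share a seed, so they are treated as 1 family. In human and rodent cells they are known to repress the cell-cycle inhibitors Cdkn1b (p27) and Cdkn1c (p57), the metalloproteinase inhibitor Timp3 and the receptor Kit. Both have been reported at raised levels in fibrotic liver, in activated hepatic stellate cells and in liver tumours, and both are also made by endothelial cells.

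The sequences below, from RefSeq on GRCm38.p6 (mm10), show what the pair shares and where it parts. Capitals mark the seed in the mature -3p forms and in miR-221-5p, the product of the opposite arm.
miR-221-3p: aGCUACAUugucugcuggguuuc
miR-222-3p: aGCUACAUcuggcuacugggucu
miR-221-5p: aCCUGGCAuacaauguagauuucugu
The -3p forms have the same first 8 bases and are identical at 11 of 23 positions when set side by side without gaps. Among 1738 mature mouse miRNAs of the RefSeq table, 3 carry this seed. The third is Mir1928, and the pair are the 2 with counts used here. The miR-221-5p seed is another sequence. The hairpins, printed because the counts are per hairpin and hold both arms together, have the -3p form in capitals.
Mir221: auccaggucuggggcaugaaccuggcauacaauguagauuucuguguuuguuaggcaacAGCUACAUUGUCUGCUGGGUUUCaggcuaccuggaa
Mir222: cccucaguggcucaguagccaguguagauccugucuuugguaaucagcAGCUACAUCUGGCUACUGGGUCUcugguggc

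Both hairpins lie on the minus strand of chromosome X. Mir221 (ENSMUSG00000065422) takes up 95 bases at chrX:19146294-19146388 and Mir222 (ENSMUSG00000065471) 79 bases at chrX:19146893-19146971 of mm10, with 504 bases between them. In GENCODE M21 no other annotated gene overlapped either hairpin on either strand, so the unknown strand setting of the counting adds no second gene to these counts. The nearest annotated gene was Gm14636, a processed transcript that starts 10010 bases from Mir222. Among the genes of the count table the nearest was n-R5s5, 822732 bases away, so no host transcript was measured.

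Libraries held 2539388 to 5255906 counts in the table, of which miRNA loci took 1434214 to 3122907. Levels are given as CPM, the count of a hairpin relative to the TMM-scaled miRNA total of its library, and a difference was called where edgeR's quasi-likelihood test gave a Benjamini-Hochberg adjusted p under 0.05 over 227 tested miRNA loci. The hepatocyte miRNAs Mir148a and Mir192 averaged 168739 and 97956 CPM over the 12 libraries. Replicate 2 of chow at 1 month stood apart, with 44.7 CPM of the pancreatic islet miRNA Mir375, against 2.21 to 5.37 CPM in the other libraries. Its summed mesenchymal miRNAs had 38433 CPM, against 13194 to 21896 CPM in the others. Its summed biliary miRNAs had 4441 CPM, against 1308 to 3546 CPM. The leukocyte, endothelial, hepatocyte and erythroid sums of that library lay within the range of the others. Values without that library are given where they change a result. In whole liver, fewer cells of a type and less RNA per cell cannot be told apart.

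After 3 months, both hairpins were higher in HFCF livers than in chow livers. Mir221 rose 1.47-fold and Mir222 rose 1.82-fold. At 1 month neither passed the test.

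For Mir221, the HFCF livers at 3 months had 3698, 4620 and 4350 counts, or 1537, 1500 and 1366 CPM, and the chow livers at 3 months had 1503, 2143 and 2365 counts, or 1009, 943 and 1044 CPM. All 3 HFCF libraries lay above all 3 chow libraries. The HFCF mean was 1468 ± 90.0 CPM and the chow mean 999 ± 51.2 CPM (SD, n = 3 each). Mir221 thus differed by 0.56 ± 0.12 (SE) on the log2 scale, with a 95% interval of 0.30 to 0.81 (edgeR adjusted p = 0.0062).

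For Mir222, the HFCF livers at 3 months had 852, 1146 and 1344 counts, or 354, 372 and 422 CPM, and the chow livers at 3 months had 309, 496 and 461 counts, or 207, 218 and 204 CPM. Again no HFCF library reached down to the chow range. The means were 383 ± 35.2 CPM in HFCF livers and 210 ± 7.68 CPM in chow livers (SD, n = 3 each). For Mir222 the log2 difference was 0.87 ± 0.15 (SE), with a 95% interval of 0.55 to 1.18 (edgeR adjusted p = 0.00171).

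Many other miRNAs also differed at that time. Of the 227 loci, 52 or 22.9% passed the test, 20 of them (8.81%) with higher levels in HFCF livers and 32 (14.1%) with lower levels. Scaled by library totals alone, 77 passed, 59 higher and 18 lower. The count of 52 fell to 20 without chow replicate 3, to 32 without HFCF replicate 2 and to 26 without HFCF replicate 3, and the pair passed each time. HFCF and chow libraries did not overlap at 39.2% of loci, and at 17.2% they did so with HFCF higher. By p-value Mir222 stood 7th and Mir221 18th among the loci, and by log2 fold change at percentiles 93.4 and 86.8. The 3 mice a group allow an exact permutation p no lower than 0.1, and both hairpins had that value at 3 months.

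**Figure D1:**
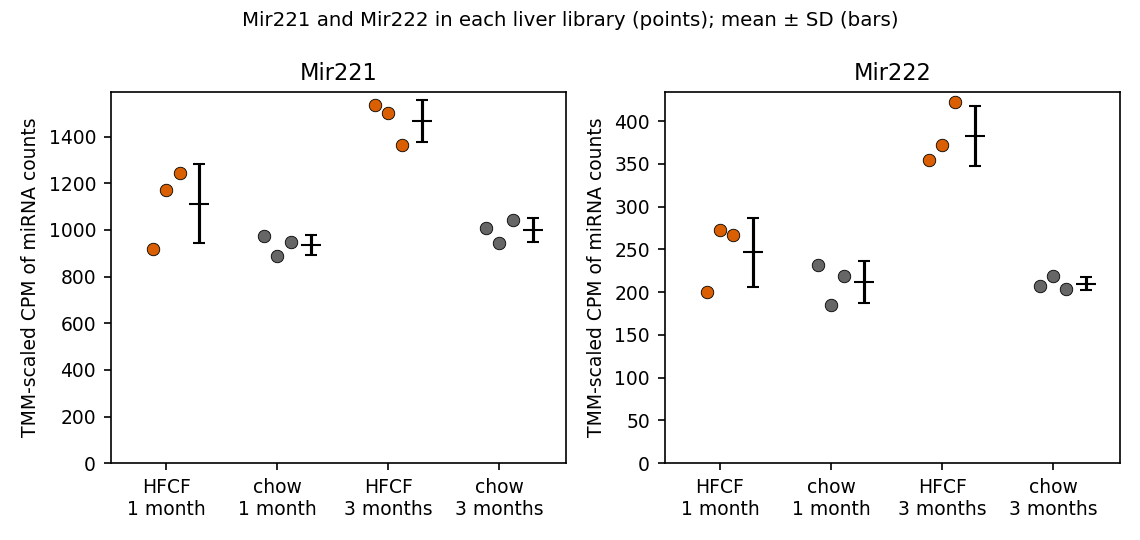
TMM-scaled CPM of Mir221 (left) and Mir222 (right) in each of the 12 liver libraries, with the 4 diet and time groups along the horizontal axis. Points are libraries and bars are the mean ± SD of 3. The 3 HFCF libraries at 3 months, 1366 to 1537 CPM for Mir221 and 354 to 422 CPM for Mir222, lie above every other library.

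At 1 month the 2 diets overlapped. Mir221 had 2159, 3276 and 3425 counts in HFCF livers, or 920, 1173 and 1245 CPM, against 2736, 1608 and 2216 counts in chow livers, or 972, 888 and 949 CPM. HFCF replicate 1 lay within the chow range, and the other 2 HFCF libraries lay above it. The log2 difference of Mir221 was 0.25 ± 0.12 (SE; 95% interval -0.01 to 0.51; edgeR adjusted p = 0.283).

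Mir222 had 470, 762 and 732 counts in HFCF livers at 1 month, or 200, 273 and 266 CPM, against 653, 334 and 512 counts in chow livers, or 232, 184 and 219 CPM. The same HFCF replicate was the low one. Its log2 difference was 0.22 ± 0.14 (SE; 95% interval -0.10 to 0.53; edgeR adjusted p = 0.475). Without HFCF replicate 1 the difference at 1 month was 0.41 for Mir221 (edgeR adjusted p = 0.0543) and 0.39 for Mir222 (edgeR adjusted p = 0.102). When every gene was fitted together it was 0.57 for Mir221 (edgeR adjusted p = 0.37) and 0.54 for Mir222 (edgeR adjusted p = 0.453). At this time 7 of 227 loci (3.08%) passed, each of them lower in HFCF livers. That direction was not shared by all settings. Without chow replicate 1 at 1 month 3 loci were higher and 5 lower. Without chow replicate 3 at 1 month 4 were higher and 20 lower. With all genes in 1 fit, 11 of 2511 genes of every kind passed, 5 higher and 6 lower.

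Over both times together, with diet labels exchanged within each time, the mean HFCF minus chow difference was 0.40 on the log2 scale for Mir221 and 0.54 for Mir222. The exact two-sided permutation p was 0.015 for each, over 400 arrangements with a smallest possible p of 0.005.

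Within HFCF-fed mice both hairpins were higher after 3 months than after 1 month. The 3-month libraries, 1366 to 1537 CPM for Mir221, lay above the 1-month libraries, 920 to 1245 CPM. The log2 difference was 0.40 ± 0.12 (SE; edgeR adjusted p = 0.0383). For Mir222 the 3-month libraries held 354 to 422 CPM and the 1-month libraries 200 to 273 CPM, a log2 difference of 0.63 ± 0.14 (SE; edgeR adjusted p = 0.0139). In this comparison 36 of 227 loci (15.9%) passed, 19 of them (8.37%) higher at 3 months. At 33% of loci the groups did not overlap, and at 14.5% the 3-month libraries were the higher ones. The count of 36 rose to 57 without HFCF replicate 1 at 3 months and fell to 6 and 5 without replicates 2 and 3 of that group, and to 10 without HFCF replicate 1 at 1 month. Both calls depended on the libraries used. The Mir222 call was lost without HFCF replicate 1 at 1 month (0.48, edgeR adjusted p = 0.0643), HFCF replicate 2 at 3 months (0.66, edgeR adjusted p = 0.0564) or HFCF replicate 3 at 3 months (0.56, edgeR adjusted p = 0.0617). The Mir221 call was lost under several other settings too. Without chow replicate 2 at 1 month, for example, the log2 difference of Mir221 was 0.34 (edgeR adjusted p = 0.0602), and without HFCF replicate 1 at 1 month, its lowest library, it was 0.25 (edgeR adjusted p = 0.159).

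Chow-fed mice showed no called difference between the times. Mir221 averaged 999 ± 51.2 CPM at 3 months and 936 ± 43.6 CPM at 1 month (SD, n = 3 each), a log2 difference of 0.09 with a 95% interval of -0.17 to 0.35 (edgeR adjusted p = 0.875). Mir222 averaged 210 ± 7.68 CPM at 3 months and 212 ± 24.7 CPM at 1 month, a log2 difference of -0.02 with a 95% interval of -0.33 to 0.30 (edgeR adjusted p = 0.993). Only 1 of 227 loci (0.441%) passed between the chow groups.

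The diet difference at 3 months minus that at 1 month was tested directly. It was 0.31 ± 0.17 (SE) for Mir221, with a 95% interval of -0.06 to 0.67 (edgeR adjusted p = 0.353), and 0.65 ± 0.20 (SE) for Mir222, with a 95% interval of 0.21 to 1.09 (edgeR adjusted p = 0.105). The unadjusted p of Mir222 was 0.00739, and it did not pass after adjustment. In this test 2 of 227 loci (0.881%) passed with edgeR, and 19 with DESeq2, where Mir222 was among those that passed (DESeq2 adjusted p = 0.0376). Scaled by library totals, both hairpins passed in edgeR (0.64 for Mir221, adjusted p = 0.0437; 0.99 for Mir222, adjusted p = 0.0238), and Mir222 also passed without HFCF replicate 1 at 3 months (0.71, edgeR adjusted p = 0.0447). Without HFCF replicate 1 at 1 month the Mir221 value was 0.09 (edgeR adjusted p = 0.781) and the Mir222 value 0.43 (edgeR adjusted p = 0.191).

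**Figure D2:**
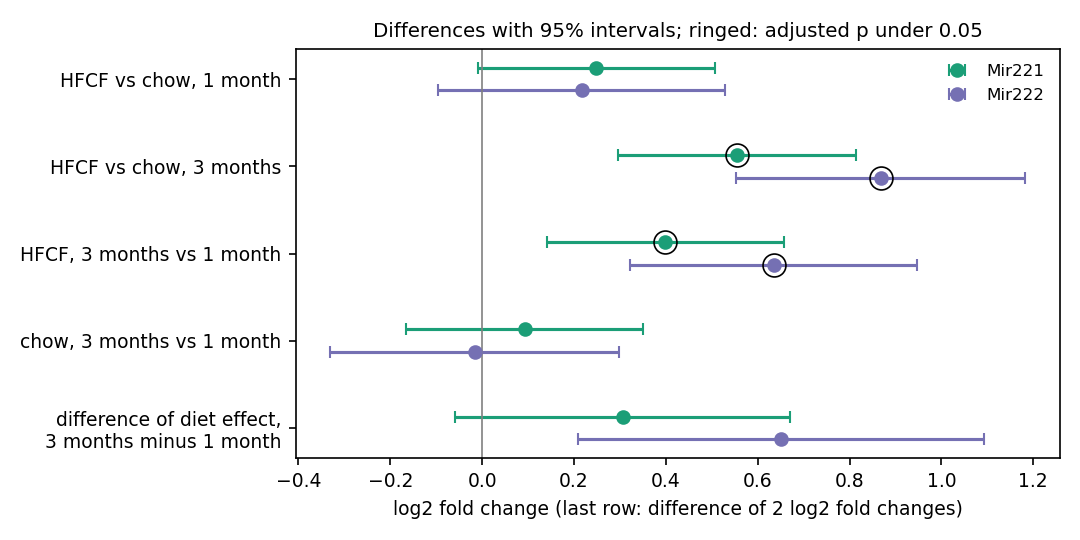
Log2 fold changes of Mir221 and Mir222 with 95% intervals in the 4 comparisons and, in the lowest pair, the difference between the diet effects at the 2 times. Ringed points had an edgeR adjusted p under 0.05. The diet intervals at 3 months, 0.30 to 0.81 and 0.55 to 1.18, lie above 0, and those of chow between times include 0.

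The order of the group means was the same at the top for both hairpins, with HFCF at 3 months highest and HFCF at 1 month next. The top group overlapped no other. HFCF at 1 month, chow at 3 months and chow at 1 month overlapped their neighbours in the order, which for Mir222 had the 2 chow groups exchanged. Among the 227 loci ordered by mean level, Mir221 was 40th in HFCF livers at 3 months and 49th in chow livers at 3 months, and Mir222 was 66th and 84th in the same groups.

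**Figure D3:**
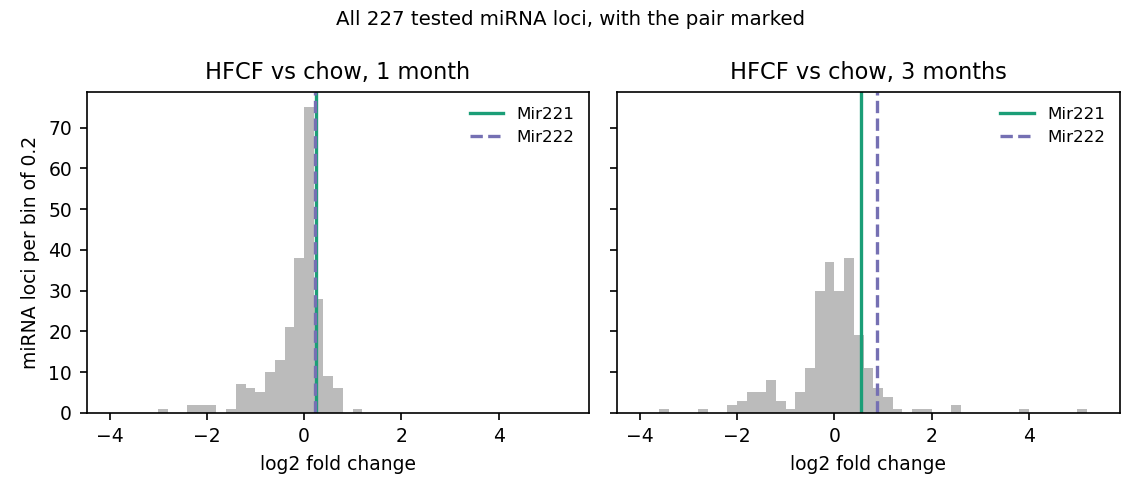
Histograms of the log2 fold changes, HFCF over chow, of the 227 tested miRNA loci at 1 month (left) and 3 months (right), with Mir221 (solid line) and Mir222 (dashed line) marked. At 3 months the lines stand at 0.56 and 0.87, where the median of all loci was 0.02.

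The hairpins are counted in the same library, so their ratio needs no scaling between libraries. Mir222 had 23.0, 24.8 and 30.9 counts for each 100 counts of Mir221 in HFCF livers at 3 months, against 20.6, 23.1 and 19.5 in chow livers at 3 months. At 1 month the ratios were 21.8, 23.3 and 21.4 in HFCF livers and 23.9, 20.8 and 23.1 in chow livers. HFCF replicate 3 at 3 months had the highest ratio of all 12 libraries, and the diets overlapped at both times.

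The mean log2 ratio differed by 0.31 between HFCF and chow at 3 months (exact two-sided permutation p = 0.2, smallest possible 0.1) and by -0.03 at 1 month (exact permutation p = 0.9). Over both times it differed by 0.14 (exact permutation p = 0.165), and adjusted over these 3 tests the p-values were 0.3, 0.9 and 0.3. Without HFCF replicate 3 at 3 months the difference was 0.19 at 3 months and 0.08 over both times. A change in the ratio was therefore not detected. Across the 12 libraries the log2 levels of the 2 hairpins had a Pearson r of 0.93 and a Spearman rho of 0.85. After each group's mean was taken out, Pearson r was 0.58. These libraries share their depth scaling and the diet groups.

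**Figure D4:**
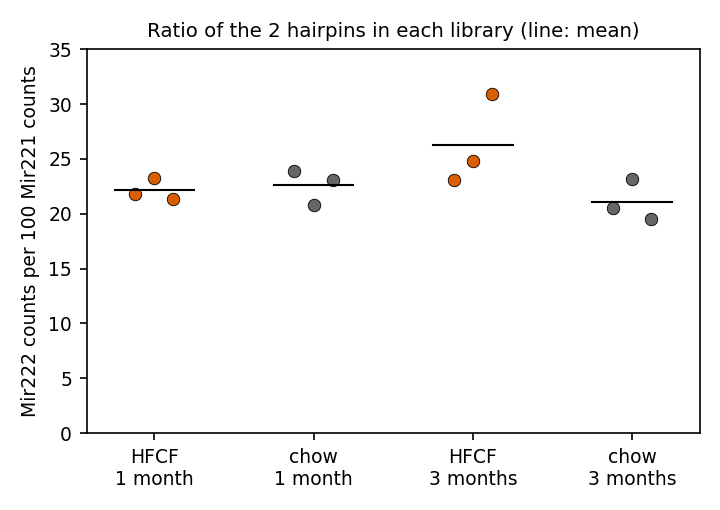
Mir222 counts for each 100 Mir221 counts in each library, by group, with the group mean as a line. HFCF at 3 months has the highest mean, 26.2, against 21.1 in chow at 3 months, with 1 library at 30.9.

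Of the 183 other loci with a mean of at least 10 CPM, the 5 whose log2 levels followed the mean of the pair most closely over the 12 libraries were Mir335, Mir676, Mir149, Mir351 and Mir223. Their Pearson r was 0.97, 0.94, 0.92, 0.89 and 0.88 and their Spearman rho 0.86, 0.73, 0.74, 0.69 and 0.68, where the median r of all compared loci was 0.06. The next locus, Mir425, also had an r of 0.88. The libraries share their scaling and fall into 4 groups. Without chow replicate 2 at 1 month, Mir335 and Mir676 stayed among the first 5, and Mir103-2, Mir205 and Mir155 took the other places. Mir676, Mir351 and Mir223 lie on chromosome X, as did 21 of the 183 loci compared.

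Mir335, which is processed from the imprinted gene Mest, had 237, 223 and 272 CPM in HFCF livers at 3 months, against 122, 133 and 119 CPM in chow livers at 3 months. Mir223, a miRNA of neutrophils and macrophages, had 81.1, 128 and 119 CPM in HFCF livers, against 55.0, 49.7 and 42.4 CPM in chow livers. In both cases the diets did not overlap, as at 39.2% of all loci. These loci were chosen for following the pair in the same 12 libraries, so a difference at 3 months was largely fixed by the choice and is given as a description. The log2 differences at 3 months were 0.96 for Mir335, 1.22 for Mir676, 2.46 for Mir149, 0.69 for Mir351 and 1.16 for Mir223.

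**Figure D5:**
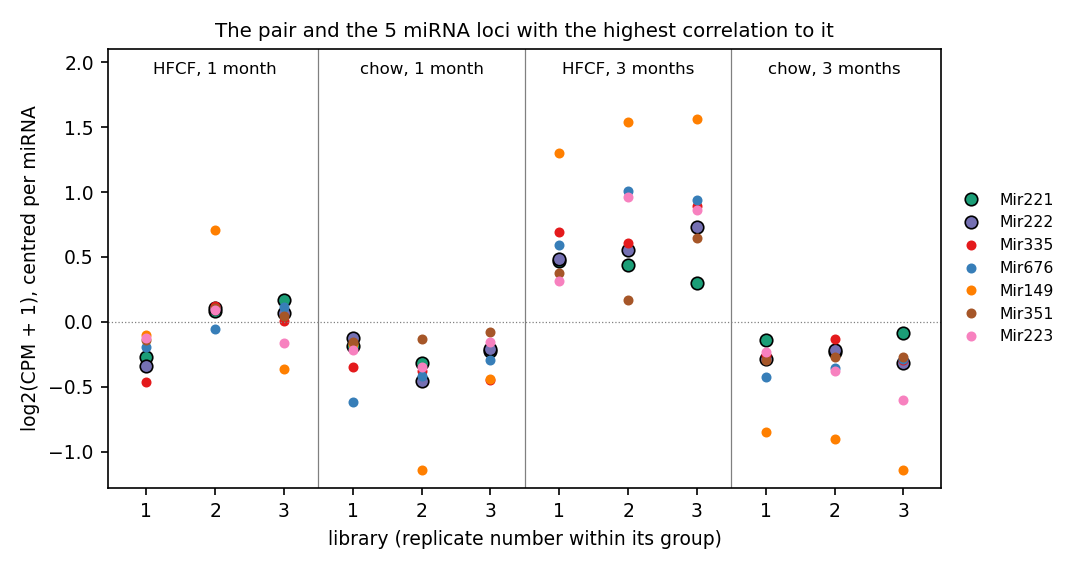
Log2(CPM + 1) of Mir221, Mir222 and the 5 loci with the highest correlation to the pair, centred on each locus' mean over the 12 libraries, by library within its group. All 7 loci are above their mean in the HFCF libraries at 3 months, and Mir149 has the widest spread.

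Of the 37 other miRNA loci of chromosome X, 32 were tested. At 3 months 3 rose in HFCF livers, Mir223, Mir351 and Mir676, and 4 fell, Mir741, Mir743, Mir880 and Mir881, which belong to a cluster best known from testis and averaged 2.49 to 21.0 CPM here. The other 25 did not pass. Over all loci 8.81% were higher and 14.1% lower, so these counts are near the background. With library totals as the scaling 8 of the 32 rose and 2 fell. Without chow replicate 2 at 1 month 35 were tested, of which 4 rose and 6 fell, where over all loci 20 rose and 42 fell. The median log2 difference of the 32 loci was 0.15, against 0.02 over all loci.

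Other miRNAs reported raised in fibrotic or fatty liver were read beside the pair. This list and those below were chosen with earlier results of these data known, so their counts beside all loci are a description. Of 12 listed, 11 were tested, and 4 of them rose at 3 months, where 8.81% of all loci did: Mir155, a miRNA of activated leukocytes (1.80 ± 0.36 SE on the log2 scale), the p53-induced Mir34a (1.67 ± 0.34), Mir132 (1.18 ± 0.33) and Mir181b-2 (1.05 ± 0.29). Mir21 and Mir33 fell, with log2 differences of -0.66 ± 0.16 and -1.80 ± 0.32; the Mir21 call was lost in the fit of all genes together (-0.39, edgeR adjusted p = 0.499). The other 5 did not pass. Without chow replicate 2 at 1 month 4 of the 11 rose and 3 fell, where over all loci 20 rose and 42 fell. With library totals 6 rose, Mir212 (1.22, edgeR adjusted p = 0.0313) and Mir214 (0.85, edgeR adjusted p = 0.0335) being added. The median of the 11 was 0.59, against 0.02 over all loci. Of 13 tested loci reported lowered or antifibrotic, 4 fell and none rose, against 14.1% lower and 8.81% higher of all loci. They were Mir101a, Mir101b, Mir29a, which targets collagen messenger RNAs, and Mir30c-2, with log2 differences between -0.56 and -0.37. None of these 4 passed with library totals as the scaling, where Mir150 of this list rose, or in the fit of all genes together. At 1 month no locus of either list passed.

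Markers of other cells moved with the pair at 3 months in part. These lists too were chosen with earlier results known, and their counts are a description. Of the 7 leukocyte miRNAs listed, 6 were tested, and Mir155, Mir223 and Mir342 rose while Mir511 fell, against 8.81% higher and 14.1% lower of all loci. With library totals the Mir511 call was lost (-0.35, edgeR adjusted p = 0.125) and Mir150 also rose (0.71, edgeR adjusted p = 0.0405). The summed level of the 6 was 1151, 1480 and 1935 CPM across HFCF livers and 974, 1122 and 1239 CPM across chow livers in ascending order, which overlap. The endothelial miRNA Mir126 differed by -0.03 ± 0.11 (SE) on the log2 scale (edgeR adjusted p = 0.862). None of the 3 mesenchymal miRNAs, Mir143, Mir145 and Mir214, passed, although Mir214 rose with library totals (0.85, edgeR adjusted p = 0.0335). The 3 together had 13194 to 21896 CPM in HFCF livers and 17532 to 21264 CPM in chow livers. None of the 5 biliary and 3 erythroid miRNAs passed between the diets at 3 months either. Among the 6 hepatocyte miRNAs Mir802 rose and Mir101b fell, with sums of 258300 to 317330 CPM in HFCF livers and 275053 to 314457 CPM in chow livers. Without chow replicate 2 at 1 month 1 of the 6 rose and 2 fell. No library had a sum of 0 in these lists. Markers also moved between the times in HFCF livers, where the pair was higher at 3 months. The leukocyte miRNAs Mir155 (1.49, edgeR adjusted p = 0.0149), Mir223 (0.81, 0.0139) and Mir342 (0.95, 0.0139) rose, while the summed leukocyte level was 1151 to 1935 CPM at 3 months and 1221 to 1490 CPM at 1 month. All 3 erythroid miRNAs fell, Mir144 with a log2 difference of -1.28 (edgeR adjusted p = 0.028), Mir451 with -1.02 (0.0414) and Mir486 with -1.14 (0.0381). Of all loci, 8.37% were higher and 7.49% lower in this comparison. The summed erythroid level in HFCF livers was 1853 to 2069 CPM at 3 months and 3395 to 4376 CPM at 1 month. Between the times in chow livers the same 3 miRNAs differed by -0.71, -0.85 and -1.05 (edgeR adjusted p = 0.479, 0.4 and 0.391). Their differences of diet effect, -0.57, -0.17 and -0.09, did not pass (edgeR adjusted p = 0.538, 0.859 and 0.957). The part of leukocytes or red cells in the differences of Mir221 and Mir222 was not tested.

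Target transcripts were read from the same table in a fit of all its genes, of which 2511 were tested. The sources name both a small RNA kit and a total RNA kit, and with the small RNA kit counts at a messenger RNA would be short fragments, so these values may not be messenger levels. The seed pairs with ATGTAGC in a messenger RNA, and 11 of 21 transcripts reported as targets carried it on the sense strand of an annotated 3′ UTR, among them Cdkn1b, Cdkn1c, Timp3, Kit, Bbc3 and Bcl2l11. The same letters stood in the 3′ UTR of 10.3% of all 21849 genes with one. These shares were not matched for 3′ UTR length and were not compared by a test. Of the 21, 5 had counts in the table used here, and 2 of those 5, Ddit4 and Ets1, carried the letters. Their counts were 0 to 13 and 1 to 13 for each library, too low to be tested.

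The transcription factor Foxo3 and the miRNA-processing enzyme Dicer1, reported targets with no match to the letters, were tested. Foxo3 had 9 to 32 counts a library and Dicer1 had 2 to 12. Neither passed, with log2 differences at 3 months of -0.30 ± 0.34 (SE) for Foxo3 and -0.14 ± 0.51 (SE) for Dicer1 (edgeR adjusted p = 0.752 and 0.936). In this fit 63 of 2511 genes (2.51%) passed at 3 months. Of 15 stellate cell and matrix transcripts, 5 had counts and only Reln, a protein secreted by stellate cells, was tested. It did not pass at 3 months (-0.31 ± 0.36 SE; edgeR adjusted p = 0.754). Col1a2 and Col3a1 had 1 to 11 and 2 to 17 counts a library.

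Over all tested genes with an annotated 3′ UTR, the 275 with the letters had a median log2 difference of 0.06 at 3 months and the 1586 without them 0.02, against 0.03 over all 2511 genes. Of the 275, 2 fell and none rose. Of the 1586, 9 rose and 15 fell. Whether genes with the letters shifted against those without them was not tested.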

How the data were processed

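The authors deposited 1 table of whole-number read counts per gene, with FPKM values beside them per the file headers, for 12 liver libraries. Reads were placed on mm10, per the submitters' processing notes. Aligner, counter and strand setting: not given in the sources used here. A small RNA library kit is named in the labels' protocols and a stranded total RNA kit in the design text, and which was used is not settled. The 12 FPKM columns were not used. Counts are per hairpin locus.

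Counts of 259 miRNA loci were analysed with edgeR 4.0.16 in R 4.3.3, with the sum over these loci as library size. A second, unmatched row named Mir155 that spans a long host transcript was left out. After filterByExpr by group, 227 loci were fitted by the robust quasi-likelihood method with TMM scaling, all 12 libraries and 1 mean per group. A standard error is the size of the log2 fold change over the root of its F value. Transcripts were read from the same fit on all genes. The ratio used log2 counts with 0.5 added. Alternatives were DESeq2 1.42.0, other scalings, no filter, all genes together, only the libraries compared, a replicate block, and each library left out. The fits were tested on simulated data. Depth was 1434214 to 3122907 miRNA counts a library. Intervals are those of the difference between group means, estimated from the spread between these libraries.

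Mir221 and Mir222 were always named, with the 5 loci most like them, the list members that passed, and up to 4 examples a list. The members and lists were chosen with earlier results of these data known. Positions came from GENCODE M21 and sequences from RefSeq. The scalings of the lists, and the list and likeness values without chow replicate 2 at 1 month, were added after seeing the data. Some members of the lists are not reported here.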

Additional observations from a re-analysis of the deposited data

How the results depend on the processing

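The diet difference at 3 months kept direction and call for both hairpins in all 20 alternatives. It ran from 0.48 to 0.81 for Mir221 (adjusted p up to 0.0491) and 0.79 to 1.12 for Mir222 (up to 0.0123). Neither passed at 1 month (Mir221 0.16 to 0.57, Mir222 0.13 to 0.54) or between the chow groups in any. The median of miRNA loci at 3 months was 0.27 with library totals and 0.28 with all genes, against 0.02.

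Between the times in HFCF livers the Mir221 call was lost without the filter (0.36, adjusted p = 0.0504), with all genes (0.71, 0.092), only the libraries compared (0.38, 0.101) or the replicate block (0.40, 0.0661). With 1 library left out Mir221 ran from 0.25 to 0.45 and was lost without chow 1 or 2 at 1 month, HFCF 1 or 2 at 1 month, or HFCF 2 or 3 at 3 months (adjusted p 0.0594 to 0.159). Mir222 ran from 0.48 to 0.69 and was lost without HFCF 1 at 1 month (adjusted p = 0.0643) or HFCF 2 or 3 at 3 months (0.0564 and 0.0617). The difference of diet effects passed for Mir222 with DESeq2 (0.64, adjusted p = 0.0376), with library totals (0.99, 0.0238) and without HFCF 1 at 3 months (0.71, 0.0447; range over left-out libraries 0.43 to 0.71), and for Mir221 with library totals (0.64, 0.0437; 0.09 to 0.36 over left-out libraries). Causes were not tested.

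Loci that passed at 1 month, against 7, were 12 with DESeq2, 11 with all genes, 4 with only the libraries compared, 11 with the replicate block, and 3 to 24 with 1 library left out (chow 2 at 1 month, chow 2 and 3 and HFCF 3 at 3 months, 4 each; HFCF 3 at 1 month, 3; chow 3 at 1 month, 24). At 3 months, against 52, there were 20 to 70 with 1 left out. Between times in HFCF livers, against 36, there were 83 with library totals (73 higher, 10 lower, against 19 and 17), 68 of 2511 genes with all genes, and 5 to 57 with 1 left out. Between times in chow livers, against 1, there were 0 with only the libraries compared or the replicate block. With 1 left out there were 8 without chow 3 at 1 month, and 0 without chow 1 or HFCF 3 at 1 month, or chow 1, 2 or 3, HFCF 2 or 3 at 3 months. The difference of diet effects, against 2, gave 19 with DESeq2, 26 with library totals, 4 with the replicate block, and 0 to 28 with 1 left out (28 without HFCF 1 at 3 months; 1 without HFCF 2 at 1 month; 0 without chow 3 or HFCF 1 at 1 month, or chow 1, 2 or 3, HFCF 2 or 3 at 3 months). With all libraries, 23 and 43 loci had an unadjusted edgeR p under 0.05 in these last tests.

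Whether replicate numbers pair the libraries cannot be decided from 3 libraries a group. Deviations correlated over 0.1 in 1 of 3 same-numbered pairs of diets at 1 month and 2 of 3 at 3 months. With the replicate block the diet differences at 3 months were 0.55 and 0.86 (adjusted p = 0.0174 and 0.00477). The ratio kept its direction in all its alternatives at 3 months and over both times. Over both times it missed the threshold in each. At 3 months it could not pass, since the smallest possible exact permutation p with all libraries was 0.1.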
